A study of Caenorhabditis elegans with 2 samples.

Results

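The regions described here were the candidates that came just below the threshold in a chromatin immunoprecipitation and sequencing (ChIP-seq) study of SPR-1 in the nematode Caenorhabditis elegans. They were chosen by rank: the 30000 lines of the authors' pooled candidate list were sorted by the authors' signal value, and the lines that directly follow the thresholded list were taken, as many as that list holds (1663 nuclear and 23 mitochondrial). All members lie on nuclear chromosomes, out of 29977 nuclear lines in the list. Signal thus chose the members and is given only as a description. The worms were of strain OP521, with the genotype unc-119(tm4063) III; wgIs521, and both samples carried SPR-1 with a C-terminal GFP-FLAG tag, precipitated with an antibody against GFP. Whole hermaphrodites were collected as L4 larvae, 50 h after synchronisation by starvation at L1. Both samples form 1 group and are labelled as separate biological replicates (n = 2). No untagged or mutant list was used here, and whole worms do not tell which cells a region comes from.

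SPR-1 is the worm counterpart of CoREST, a corepressor that scaffolds the histone demethylase LSD1 and histone deacetylases at chromatin. Its gene, like that of the worm LSD1, was found through mutations that suppress loss of the presenilin SEL-12, a component of Notch signalling. An analysis of the irreproducible discovery rate takes a list of candidates that runs on purpose into background and keeps those that replicates rank alike. The candidates just under such a threshold are not called, though they stand far above the end of the list.

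The members were set against the thresholded list and against a block of equal size in the middle of the list, ranks 14158 to 15843. The thresholded list equals the top of the ranked candidates line for line, so here a line's side of the cut follows its pooled signal. The block that follows the members directly is given where it adds to the picture.

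The signal of the members, on a scale the sources do not state, ran from 55.3 to 79.7 with a median of 64.2. The median was 115 in the thresholded ranks and 27.4 in the middle of the list. The members' deposited −log10 q ran from 1.42 to 2.85, which is q between 0.0014 and 0.038. None of the members reached the highest −log10 q of the list, 3.02, at which 1561 thresholded lines were tied. Of the members, 1670 (99.1%) had the standard width of 460 bp, against 80.2% of the nuclear thresholded lines, 288 of which were narrower. The signal did not break at either edge. The first member, in the 3′ untranslated region of best-7 at chrIV:11226287-11226746, had a signal of 79.68, and the last thresholded line, an intergenic region at chrIV:9442194-9442653, had 79.71. The last member (chrII:10575704-10576163, inside an annotated pseudogene) had 55.33 and the line after it had 55.32. The member of rank 1688, in the promoter of F18E3.11, had ranks of 1348 and 1000 in replicates 1 and 2. These ranks belong to replicate regions that the overlapping member of rank 1717 matches too. The last thresholded line had 1875 and 1493.

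The sequences below are 101 bp windows centred on member summits, read on the plus strand of the RefSeq copy of WBcel235, which is the same build as ce11. They were picked after the values were seen, as high-ranked members that hold the word in question. The first 3 lie at tRNA genes and show, in capitals, the word GGTTCGA or its reverse complement, the core of the B box by which transcription factor IIIC recognises these genes.
K08H2.t1 (tRNA-Thr, rank 1690, chrX:13261194-13261294): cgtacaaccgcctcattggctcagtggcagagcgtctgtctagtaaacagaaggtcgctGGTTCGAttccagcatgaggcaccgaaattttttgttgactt
F08G5.t1 (tRNA-Arg, rank 1822, chrIV:12417883-12417983): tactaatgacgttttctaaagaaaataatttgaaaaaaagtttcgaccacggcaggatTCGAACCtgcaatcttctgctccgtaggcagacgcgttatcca
R04D3.t4 (tRNA-Tyr, rank 1961, chrX:13284720-13284820): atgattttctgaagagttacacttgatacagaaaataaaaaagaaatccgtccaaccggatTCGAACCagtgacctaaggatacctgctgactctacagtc

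The next 3 come from promoters of protein-coding genes, where the word CTGCGTC or its reverse complement is in capitals. asb-2 encodes a subunit of the mitochondrial ATP synthase, vha-15 a subunit of the vacuolar proton pump and pig-1 a MELK-family kinase. The summits lay 252 bp, 259 bp and 191 bp from the starts of asb-2, vha-15 and pig-1.
asb-2 (rank 1767, chrX:4469464-4469564): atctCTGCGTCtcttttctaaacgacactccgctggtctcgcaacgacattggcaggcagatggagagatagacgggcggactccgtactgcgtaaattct
vha-15 (rank 1802, chrX:2237602-2237702): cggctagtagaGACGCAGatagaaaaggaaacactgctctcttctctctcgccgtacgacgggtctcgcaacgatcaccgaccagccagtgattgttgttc
pig-1 (rank 1816, chrIV:519598-519698): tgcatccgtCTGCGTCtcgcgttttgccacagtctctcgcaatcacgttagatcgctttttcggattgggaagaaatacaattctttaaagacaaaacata

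An intergenic member shows runs of GAGAGAG, with both strands counted, and 2 members inside cuticle collagen genes show CCAGGA or its reverse complement, which in these genes can encode proline followed by the glycine of the collagen repeat.
Intergenic (rank 1703, chrIII:13182109-13182209): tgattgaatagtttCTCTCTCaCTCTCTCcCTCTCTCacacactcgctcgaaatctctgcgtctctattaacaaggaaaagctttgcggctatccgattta
col-180 (rank 1796, chrX:11711694-11711794): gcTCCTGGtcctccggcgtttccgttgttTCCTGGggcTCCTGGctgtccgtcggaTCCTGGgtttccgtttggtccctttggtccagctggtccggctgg
col-80 (rank 1832, chrII:10707766-10707866): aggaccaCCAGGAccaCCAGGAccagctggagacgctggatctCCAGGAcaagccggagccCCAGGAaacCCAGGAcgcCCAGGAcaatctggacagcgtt

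In their shares of promoters, coding exons and intergenic regions, the members stood between the regions above the threshold and the middle of the list. Their share of untranslated regions was above both, and their share of introns was below both. A summit was classed as promoter when it lay within 500 bp of the annotated start of a protein-coding gene, and otherwise as coding exon, untranslated region, intron or intergenic, in that order. Promoters held 595 members (35.3%, 95% Wilson interval 33.0 to 37.6), against 42.2% of the thresholded ranks and 23.1% of the middle block, while 24.8% of all nuclear candidates lay in promoters. The promoter share of the members minus that of the thresholded ranks was −6.86 percentage points (Newcombe interval −10.1 to −3.56). Intervals here take lines as independent and cover counting error only. In each replicate's own list, ranked and divided the same way, the difference averaged −9.65 ± 0.491 points (SD, n = 2). With 2 replicates the smallest two-sided p of a sign-flip test is 0.5, so none is given.

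Coding exons held 171 members (10.1%, interval 8.79 to 11.7), against 3.01% of the thresholded ranks and 21.2% of the middle block, with 17.9% of all candidates as background. The replicates' own blocks at these ranks had 12.2% ± 0.168 in coding exons, against 4.09% ± 0.593 in their strongest blocks (mean ± SD, n = 2 each). Untranslated regions held 6.64% of members, against 2.77% of the thresholded ranks, 4.39% of the middle block and 5.32% of all candidates. Of these summits, 98 (87.5%) lay in 3′ untranslated regions alone, against 28 of 46 (60.9%) in the thresholded ranks, 87.6% in the block that follows and 83.8% in the middle block. The members of highest signal in a 3′ untranslated region were at best-7 (a bestrophin-family channel), gdi-1 (a Rab regulator) and nck-1 (an SH2/SH3 adaptor), a choice made after their values were seen.

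Introns held 325 members (19.3%), against 21.1% of the thresholded ranks, 29.1% of the middle block and 27.7% of all candidates. This was the lowest share of the 17 full blocks of the list. The difference from the thresholded ranks, −1.83 points, has an interval that spans 0 (−4.55 to 0.889), and it had the opposite sign in both replicates' own lists, 0.0978 and 1.77 points. Intergenic summits made up 483 members (28.6%), against 31.0% of the thresholded ranks, 22.2% of the middle block and 24.3% of all candidates. Divergent promoters, with starts on both sides within reach, held 76 members (4.51%), against 10.6% of the thresholded ranks and 2.08% of the middle block (2.34% of all candidates).

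**Figure D1:**
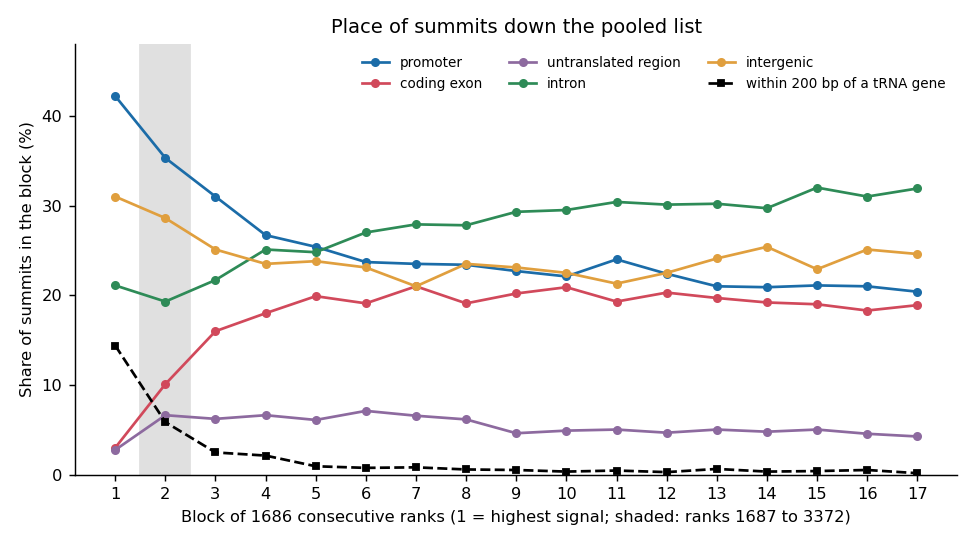
Share of summits (%, y axis) in each class of place, and within 200 bp of a tRNA gene, in the 17 consecutive blocks of equal size of the pooled list (x axis, block 1 has the highest signal; the shaded block holds the members). The members' promoter share of 35.3% and coding exon share of 10.1% lie between those of the blocks on either side, while their intron share of 19.3% is the lowest of the 17.

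Among promoter members, 407 of 595 summits (68.4%) lay upstream of the nearest start, with a median position of −109 bp. In the thresholded ranks 83.9% lay upstream, with a median of −165 bp, and in the middle block 51.8%. Because many worm messenger RNAs are trans-spliced, an annotated start can lie some way downstream of the true initiation site.

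The X chromosome held 276 members (16.4%, interval 14.7 to 18.2), against 352 thresholded lines (21.2%) and 15.6% of the middle block. The share among all candidates was 16.6%, so the members were at the background. The difference from the thresholded ranks was −4.80 points (interval −7.44 to −2.15). It was −3.69 points in replicate 1 and −1.38 points in replicate 2, and it was −1.65 points (interval −4.27 to 0.951) once lines within 200 bp of a tRNA gene were left out of both blocks. Many worm tRNA genes lie on X: 39 of the 99 members at a tRNA gene did, and 116 of 240 thresholded lines. Chromosome V held 277 members (16.4%), against 13.3% of the thresholded ranks, 15.4% of the middle block and 15.6% of all candidates. On the autosomes, 545 of 1410 members (38.7%) lay in the middle of 3 equal parts of the chromosome, against 39.5% of the thresholded ranks and 37.5% of all autosomal candidates.

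**Figure D2:**
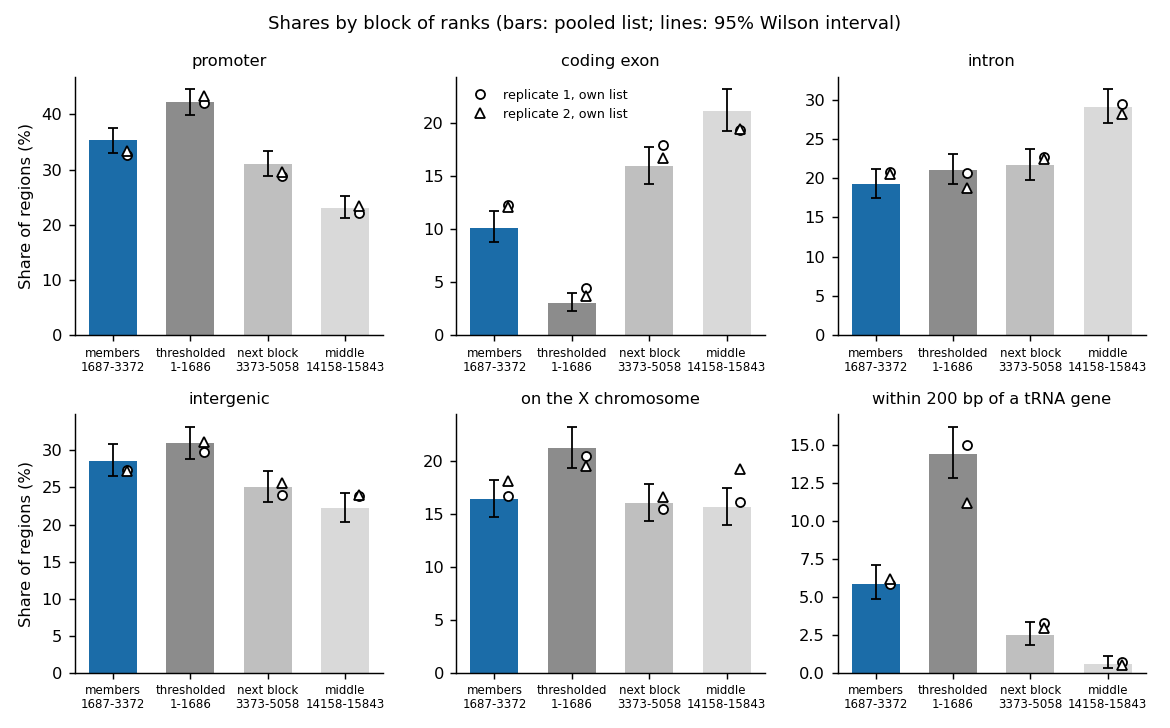
Share of regions (%, y axes from 0) in 6 classes for the members, the thresholded ranks, the block that follows and the middle of the list (x axes, with ranks). Bars are the pooled list with 95% Wilson intervals, circles and triangles are replicates 1 and 2 ranked on their own lists; for tRNA genes the pooled shares are 5.87%, 14.4%, 2.49% and 0.593%.

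Genes read by RNA polymerase III and other small RNA genes were less frequent among the members than above the threshold, and tRNA genes were still more frequent among the members than in the list as a whole. A line was assigned to an RNA gene when its summit lay within 200 bp of it. tRNA genes were next to 99 members (5.87%, interval 4.85 to 7.10), against 240 thresholded lines (14.4%) and 0.593% of the middle block, with 1.80% of all candidates as background. snoRNA genes, whose products guide the modification of ribosomal RNA, were next to 17 members (1.01%, interval 0.630 to 1.61), against 5.23% of the thresholded ranks and 0.534% of the middle block, and the 0.694% of all candidates lay within the members' interval. In the replicates' own lists the tRNA share was 5.99% ± 0.252 in the same block, against 13.1% ± 2.71 in the strongest block (SD, n = 2 each). The snoRNA share was 1.28% ± 0.126, against 5.11% ± 0.0828.

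Counted by gene, 98 of the 476 tRNA genes with any candidate had their best summit among the members (20.6%), and 54.4% had it above the threshold. These genes are not all separate observations, since neighbouring tRNA genes can share a line, as C12C8.t2 and C12C8.t5 do. The RefSeq annotation gave an isotype for 97 of the 98, and these covered 19 isotypes. By number, glycine tRNAs led with 15 of 42 genes, followed by proline with 10 of 34 and threonine with 9 of 28. By share, tryptophan stood above glycine among isotypes with several genes, with 5 of 9 (55.6%) and 35.7% in that order, while none of the 10 cysteine or 13 histidine tRNA genes had its best summit here. The strongest were F18C5.t1 (lysine, signal 79.6), K08H2.t1 (threonine, 79.6), sup-24 (tryptophan, 79.4), a gene known for amber suppressor alleles, and F21C3.t1 (lysine, 79.2). Of the 98 best summits, 37 lay inside the tRNA gene itself, and 63 of the 98 genes hold the B box core within the gene. Of the lines at tRNA genes, 65 of the 95 members with a region in both replicates ranked better in replicate 1, with a median rank of 2012 in replicate 1 and 2856 in replicate 2. Of the thresholded lines, 176 of 239 did.

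The spliced leader RNA genes supply the short exon that is trans-spliced to messenger RNAs. They were next to 4 members (0.237%), sls-2.5, sls-2.10, sls-2.7 and sls-2.13, all of the SL2 family, with signals of 68.2, 63.4, 62.7 and 58.1. There were 13 such lines in the thresholded ranks and none in the middle block, and the background was 0.0701%. Other snRNA genes were next to 9 members (0.534%), against 23 thresholded lines and 0.250% of all candidates. The highest-ranked was F08G2.11 with a signal of 77.2. miRNA genes were next to 4 members (0.237%), at the background of 0.247%. One line lay beside mir-48, a let-7 family miRNA of the heterochronic pathway (signal 73.4, ranks 2314 and 1732 in replicates 1 and 2), and another had its summit between mir-64 and mir-65, with mir-66 within 200 bp (signal 55.9). The others were at mir-5595 and mir-1829c.

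piRNA genes, which encode the 21U-RNAs of the germline, were next to 9 members (0.534%), against 18 thresholded lines (1.08%), 49 lines of the middle block (2.91%) and 2.51% of all candidates. The pooled share was the lowest of the 17 blocks. The replicates' own blocks had 1.07% and 0.890%, which differed from their own strongest ranks by 0.0475 points on average. lincRNA genes were next to 10 members (0.593%, all candidates 0.387%), with linc-151 (77.4) and linc-33 (77.2) of highest signal. Genes annotated as ncRNA were next to 197 members (11.7%), against 23.9% of the thresholded ranks and 6.71% of all candidates. The classes are not exclusive, and some of these lines are counted at tRNA genes too. An example is the line of rank 1822, where the ncRNA gene F08G5.18 lies over F08G5.t1 on the other strand. Pseudogenes were next to 16 members (0.949%, all candidates 1.52%), antisense RNA genes to 2 (0.119%, all candidates 0.173%) and ribosomal RNA genes to none.

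Protein-coding genes were assigned by their best summit within 1000 bp of the start. The members supplied this for 880 of the 9153 genes with any candidate (9.61%), against 1164 genes (12.7%) for the thresholded ranks and 457 for the middle block. The 880 genes rest on 724 lines, 151 of which serve more than 1 gene, and 857 members (50.8%) had no gene start within 1000 bp. In replicate 1, 423 of these genes had their best summit in the same block of its own list, 114 above it and 337 below it. In replicate 2 the counts were 332, 178 and 355.

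Cuticle collagens supplied the most genes of any list, and more here than above the threshold. These secreted proteins form the cuticle and are made in bursts before each moult. Of 146 collagen genes with a candidate, 29 (19.9%) had their best summit among the members, against 10 (6.85%) in the thresholded ranks, 24 (16.4%) in the block that follows and 7 in the middle block, where all genes gave 9.61% for the members. In the replicates' own lists the block held 18 of 144 in replicate 1 and 23 of 128 in replicate 2. Only 11 of those 18 and 10 of those 23 were among the 29 genes of the pooled block. All genes gave 9.73% and 10.8% in the replicates' blocks. The pooled count was 14 with a limit of 500 bp in place of 1000 bp. The 6 of highest signal were col-180 (77.1), col-80 (76.3), col-133 (76.1), col-125 (74.8), dpy-13 (74.6) and col-65 (73.4). Of these, dpy-13 is a classical body-shape gene, in which mutations give short worms. It had ranks of 1820 and 1880 in replicates 1 and 2, and its region was only 115 bp wide.

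Most collagen summits lay in the body of the gene. In 27 of the 29 (93.1%) the summit was downstream of the start and inside the gene, with a median of 536 bp downstream and quartiles of 288 and 692 bp. The exceptions were col-48, with a summit 139 bp upstream, and col-142, which shares a line with its neighbour col-141. Among the other 851 genes of the block, 29.0% had a downstream summit and the median was −164 bp. In the replicates' own blocks 16 of 18 and 20 of 23 collagen summits were downstream. The 10 collagen genes above the threshold had 8 downstream. The word CCAGGA, looked for after the values were seen, was in 18 of the 28 collagen windows (64.3%), against 18.7% of the members in coding exons, 4.63% of all members and 3.26% of all candidates. The coding exon members include the lines of 16 of the 29 collagen genes. As the word can encode part of the collagen repeat, its share describes where the windows lie.

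**Figure D3:**
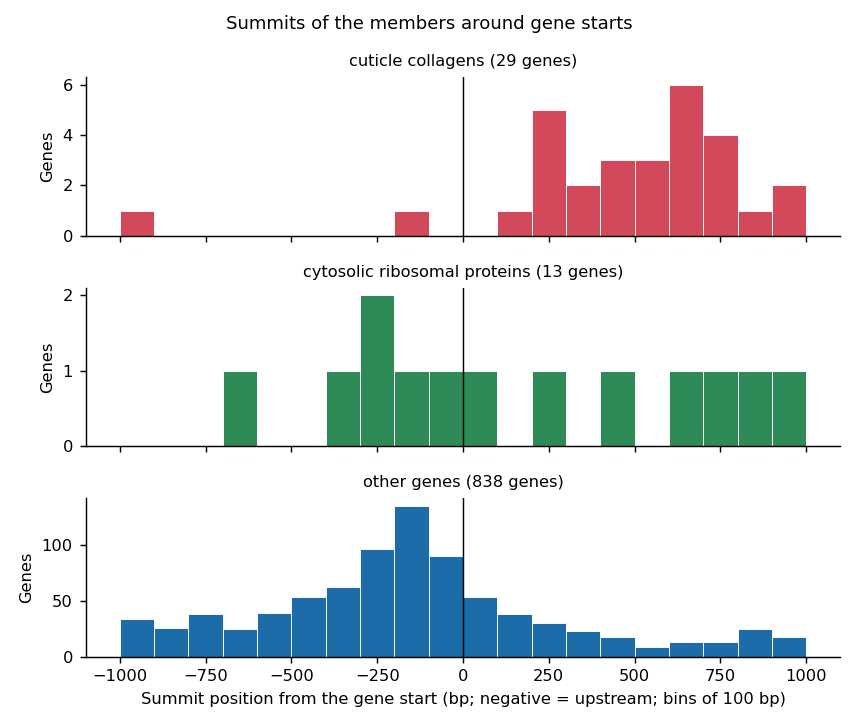
Number of genes (y axes) by the position of their best member summit relative to the annotated start (x axis, bp, bins of 100 bp) for 29 cuticle collagens, 13 cytosolic ribosomal proteins and the 838 other genes of the block. Collagen summits pile up downstream, with 27 of 29 past the start, while most of the other genes have theirs upstream.

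Ribosomal protein genes were split between the blocks. Of 78 cytosolic ribosomal protein genes with a candidate, 13 (16.7%) had their best summit among the members, against 48 (61.5%) in the thresholded ranks and none in the middle block. The replicates' own blocks held 8 of 76 in replicate 1 and 11 of 79 in replicate 2, where all genes gave 9.73% and 10.8%. The pooled count was 8 within 500 bp. The strongest were rpl-9 (77.7), rps-13 (76.0), rps-22 (71.6), rpl-32 (66.7), rpl-30 (66.2) and rpl-26 (64.8). Their summits were not placed alike: 7 of the 13 (53.8%) lay downstream of the start, against 3 of the 48 (6.25%) above the threshold. For all genes of the members' block this share was 31.1%. Only 4 of the 13 (30.8%) had the summit inside the gene, against 27.5% of all genes of the block. rpl-9, rps-13 and rps-22 had summits 276, 255 and 101 bp upstream, while rpl-30 and rpl-26 had them 844 and 948 bp downstream. The rpl-26 line is nearer to the start of suf-1, 113 bp upstream of it. The lines of rpl-9, rps-13 and rpl-30 are likewise nearer to the starts of lpd-7, nfx-1 and madf-10, in that order. Mitochondrial ribosomal protein genes had 10 of 53 (18.9%) here, against 8 above the threshold, where all genes gave 9.61% and 12.7%. The replicates' own blocks held 9 of 55 in replicate 1 and 5 of 44 in replicate 2. The pooled ones were led by mrpl-50 (79.5), mrps-16 (74.2), mrpl-15 (73.2) and mrpl-41 (64.6). mrpl-1 and mrps-24 share a line.

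Of 57 genes for remodelling and histone modification, 11 (19.3%) had their best summit among the members, against 17 (29.8%) in the thresholded ranks, where all genes gave 9.61% and 12.7%. The replicates' own blocks held 10 of 54 in replicate 1 and 4 of 54 in replicate 2, where all genes gave 9.73% and 10.8%. The strongest were set-25, a histone H3 lysine 9 methyltransferase (76.5), pbrm-1, a polybromo subunit of SWI/SNF (75.8), mes-2, the worm E(z) Polycomb enzyme (74.9), set-20 (70.7), wdr-5.1, a subunit of COMPASS (68.7), and sir-2.1, a sirtuin deacetylase (64.1). Of 13 genes for CoREST, LSD1 and deacetylases, 3 were members and 3 were above the threshold. The members were mep-1, which works with the Mi-2 remodeller (72.6), hda-1, a class I histone deacetylase (59.1), and set-2, the main H3 lysine 4 methyltransferase (57.3). hda-1 and set-2 also stand on the remodelling list. Some of these lines are nearer to another start: the hda-1 line lies 991 bp upstream of hda-1 and 269 bp upstream of ril-1, and the pbrm-1 line lies 968 bp upstream of pbrm-1 and 268 bp downstream of the start of T28F4.4. mep-1 had ranks of 2289 and 2020 in replicates 1 and 2. hda-1 had 2004 and 8525, and set-2 had 8540 and 1787, so the replicates placed these regions far apart.

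DREAM and synMuv genes had 3 of 18 here, lin-36 (64.2), lin-61 (59.6, on a line shared with bub-1) and lin-52 (59.4), against 5 above the threshold, with 3 in replicate 1's own block and 1 in replicate 2's. All genes gave 9.61%. Histone genes had 6 of 40, against 10, with his-61 and his-62 on 1 line (77.2), then his-41 (76.1), which overlaps a thresholded region, and his-74 (64.4), which encodes an H3 variant and whose line is nearer to the start of ccch-3. The list of splicing factors, gathered by gene symbol, had 7 of 42, against 10 above the threshold, with 4 in replicate 1 and 9 in replicate 2. It was led by lsm-6 (79.2), rsp-6 (76.3) and snrp-3 (74.0). One of the 7, sft-4 (67.9), encodes a cargo receptor of the endoplasmic reticulum and is no splicing factor. Proteasome genes had 6 of 33, against 4 above the threshold, with 6 in replicate 1 and 3 in replicate 2. They were led by pas-4 on a line shared with the RNA polymerase II gene rpb-3 (78.3), then rpt-2 (74.4), rpn-5 (72.9) and rpn-9 (68.7). RNA polymerase II subunits, TAFs and Mediator had 7 of 58, with 4 in replicate 1 and 5 in replicate 2, among them ama-1, the largest polymerase subunit (62.2), which matched no region of replicate 1 and rank 1232 of replicate 2. Translation factors had 5 of 39, against 14 above the threshold, led by eif-3.G (67.4). Replicate 1's own block held 1 of 36 and replicate 2's held 6 of 33.

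Stress and longevity factors had 4 of 19, the same count as above the threshold: hif-1, the hypoxia factor (71.9), dve-1, of the mitochondrial unfolded protein response (70.2), skn-1, of the oxidative stress response (63.5), and pqm-1 (56.4). Replicate 1's own block held 1 of 20 and replicate 2's held 4 of 18, and all genes in the pooled block gave 9.61%. Heat shock proteins and chaperones had 5 of 53, against 21 above the threshold, with 3 in replicate 1 and 8 in replicate 2. They were dnj-11 (65.0), hsp-4, the endoplasmic reticulum BiP (61.2), dnj-4 (61.0), and the divergently transcribed small heat shock genes hsp-16.2 and hsp-16.41 on 1 line (56.8). Respiratory chain genes had 4 of 56, against 18, with 6 in replicate 1 and 4 in replicate 2. They were asb-2 (77.6), cox-6C (76.9), nuo-2 (63.8) and ucr-1 (63.2). The list of dosage compensation and X signal genes had 3 of 15, against 1, and each replicate's own block also held 3. The 3 in the pooled block were sdc-1 (72.6), ceh-39, an X signal element (69.0), and fem-2 (64.6), which is of neither kind. Germline genes had 4 of 25, against 2: nos-3 (74.6), xnd-1 (74.3, on a line nearer to madf-11), gld-1 (70.8) and car-1 (55.6), with 2 in replicate 1 and 5 in replicate 2.

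Several lists of receptors and of signalling lay below the 9.61% of all genes. Chemoreceptors had 4 of 173 (2.31%), against 10 above the threshold, ubiquitin ligase adaptors 3 of 82 (3.66%), neuropeptides and insulins 2 of 58 and nuclear hormone receptors 6 of 117 (5.13%), led by nhr-48 (73.0), nhr-35 (70.8), nhr-114 (66.9) and nhr-3 (64.7). None of the 18 Notch and presenilin genes, 11 vulval induction and Wnt genes or 21 heterochronic and moulting genes with a candidate had its best summit here, while 2, 2 and 6 of them had it above the threshold. The replicates' own blocks held 2 Notch and presenilin genes in replicate 1 and none in replicate 2, and 2 heterochronic and moulting genes in replicate 2 and none in replicate 1. Of the remaining lists, nuclear pore and transport had 3 of 36, cell cycle 5 of 49, with mcm-2 (72.0) and cye-1 (66.3, on a line nearer to pqn-21) of highest signal, and intestine 3 of 19. Muscle had 1 of 19, pan-neuronal and synaptic genes 3 of 21, sperm 4 of 48, and homeobox genes 2 of 32. Channels and receptors had 4 of 85, C-type lectins 2 of 45, cytochrome P450 and UGT genes 5 of 74, aminoacyl-tRNA synthetases 2 of 21, and TOR, AMPK and sestrin genes 1 of 15. In the replicates' own blocks these lists held from 0 to 9 genes each, and cell cycle genes, for one, numbered 9 in replicate 1 and 4 in replicate 2.

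**Figure D4:**
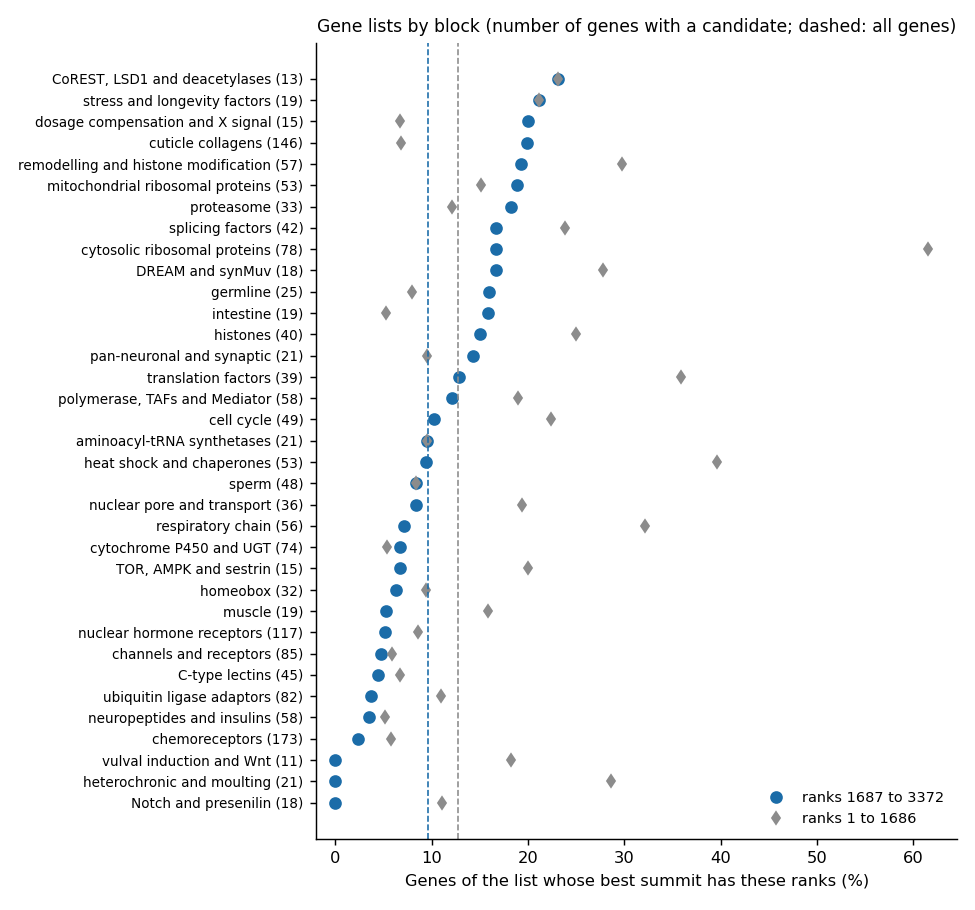
Percent of the genes of each of 35 lists whose best summit within 1000 bp of the start falls among the members (circles) or in the thresholded ranks (diamonds), with the number of genes with a candidate in brackets; dashed lines give all protein-coding genes, 9.61% and 12.7%. Cuticle collagens lie at 19.9% and 6.85%, cytosolic ribosomal proteins at 16.7% and 61.5%.

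Nearly every member was found in both replicates, but seldom at the same height. With the strongest overlapping region taken in each replicate (1 bp or more), 1645 members (97.6%) matched a region of both, against 99.8% of the thresholded ranks, 39.5% of the middle block and 48.7% of all candidates. The pooled list was made from both replicates, so these ranks are not independent of the rule. The members' median rank was 2691 in replicate 1 and 2795 in replicate 2, with quartiles of 1850 and 4060 and of 1741 and 4493. Both ranks were at least as high as the members' own last rank for 550 members (32.6%), against 94.0% of the thresholded ranks and 1.48% of the middle block. One replicate alone had the member within the depth of the thresholded list in 476 cases (28.2%), and neither did in 1090 (64.7%). The median gap between the 2 ranks was 1846 places. It was 304 in the thresholded ranks, 3557 in the block that follows and 5243 in the middle block. Median ranks in replicate 1 were 790, 4614 and 12825 in those blocks in that order, so gaps had more room further down. The middle block's gap rests on its 666 lines with a region in both replicates. The gap in places therefore cannot tell whether the replicates' agreement changed down the list. In these lists of unequal length, 833 members ranked better in replicate 1 and 812 in replicate 2.

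The extremes show how far the replicates could part. A region at chrIV:8313447-8313906, 731 bp from the start of F35H10.10, had rank 25932 in replicate 1 and 1477 in replicate 2. A region at chrX:1083409-1083868, 2990 bp from the start of the profilin gene pfn-3, had 23818 and 1116. In the other direction, the promoter of K09E9.3 (chrX:15613786-15614245) had rank 1266 in replicate 1 and 20628 in replicate 2, and an intergenic region near C34B4.2 (chrV:13081321-13081780) had 1605 and 20279. By class, both ranks reached the members' last rank for 9 of 17 members at snoRNA genes (52.9%) and 44 of 99 at tRNA genes (44.4%). The intervals were 31.0 to 73.8 and 35.0 to 54.3. The share was 41.1% for untranslated regions, 34.6% for intergenic members, 32.6% for promoters, 29.5% for introns and 27.5% for coding exons.

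A small group of members sat on the flanks of stronger regions. Of the members, 131 (7.77%) overlapped a thresholded line, against 5.87% of the block that follows, 1.07% of the middle block and 2.37% of all candidates below the threshold. Their best overlapping replicate regions had median ranks of 751 and 789 in replicates 1 and 2, against 2853 and 2982 for the 1555 members that stood apart. With the nearest summit taken in place of the strongest overlapping region, 26 members in all had both ranks within the depth of the thresholded list, against 120 with the strongest. The most extreme were intergenic lines on X at chrX:806445-806929 (ranks 35 and 38) and chrX:4208972-4209601 (ranks 39 and 28; 630 bp wide), and a promoter line at the histone gene his-37 (ranks 59 and 62). The widest member, 773 bp at chrX:16930831-16931603, was of this kind too. Of the 120 members with both ranks within the depth of the thresholded list, all but 17 overlapped a thresholded line. Not all of the 17 rest on separate replicate regions. The members of ranks 1688 and 1717 match the same ones, as do those of ranks 2565 and 3060. These 17 include, as picked after their values were seen, an intron of hlh-30, a TFEB-family factor of autophagy (ranks 1532 and 1558), promoters of pro-1 (1559 and 1478) and dpy-5 (1237 and 1190), and an exon of bli-6 (1675 and 988). dpy-5 and bli-6 are cuticle collagen genes.

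**Figure D5:**
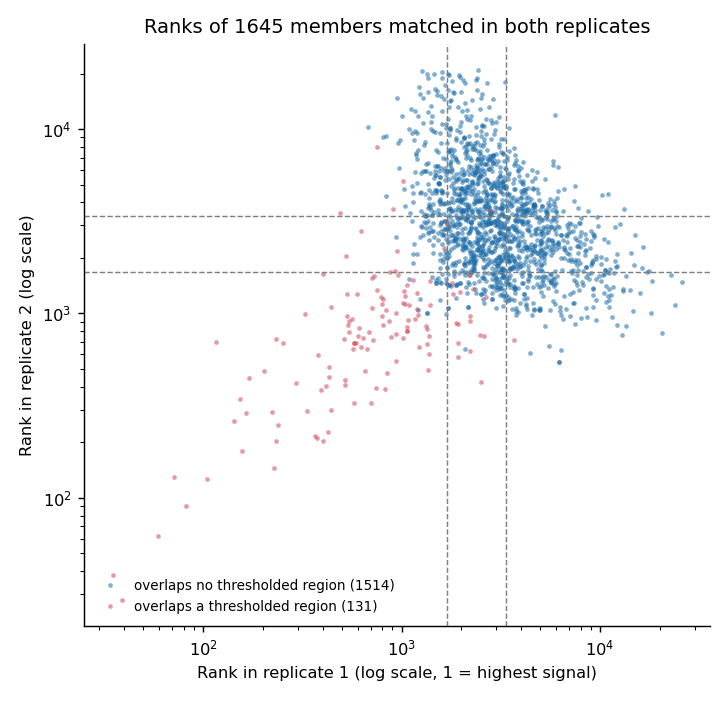
Rank in replicate 1 (x axis) against rank in replicate 2 (y axis, both on log scales, 1 = highest signal) for the 1645 members matched in both replicates; dashed lines mark the last rank of the thresholded list and the last rank of the members. The 131 members that overlap a thresholded region (red) spread toward the lower left with median ranks of 751 and 789, while the 1514 others (blue) scatter around the dashed lines.

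The windows around the summits were intermediate in sequence as well. GC content over 101 bp averaged 43.2% ± 10.5 (SD over the members' windows), against 47.7% ± 8.80 in the thresholded ranks and 37.0% ± 10.3 in the middle block, with 38.3% over all candidates. In the stretches 200 to 250 bp away the means were 37.2%, 36.5% and 36.6% for those blocks in that order. Members in 3′ or 5′ untranslated regions averaged 34.6% at the summit and 36.4% in the flanks, unlike members in promoters, with 43.1% and 36.6%.

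Among all 2080 words of 6 bases, a word counted together with its reverse complement, GAGAGA exceeded its share in all candidates by the most: it was in 18% of member windows, against 21.9% of the thresholded ranks, 8.54% of the middle block and 9.49% of all candidates, and in 8.72% of the members' own flanks. Next were AGAGAG (14.3%, against 7.61% of all candidates), which overlaps it, and CGTCTC (11.6%, against 5.35%). The words furthest below their share in all candidates were rich in A and T, and these differences were larger: AAAATT was in 23.5% of members, against 36.4% of all candidates, and TAAAAA in 20.2%, against 29.7%. Of the 20 most enriched words, 18 had shares between those of the thresholded and middle blocks. The longer word GAGAGAG was in 7.95% of members, against 9.98% of the thresholded ranks, 2.91% of the middle block and 3.55% of all candidates. CTGCGTC was in 6.52% of members, 9.92% of the thresholded ranks, 1.07% of the middle block and 2.35% of all candidates. It was in 40 of the 595 promoter members (6.72%). GGTTCGA was in 2.55% of members, against 6.79% of the thresholded ranks and 1.39% of all candidates, and 26 of the 43 member windows with it lay at a tRNA gene. TATAAA went the other way, with 8.24% of members, against 6.07% of the thresholded ranks, 14.2% of the middle block and 12.8% of all candidates. A match is a description of the letters in the window and not a site.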

How the data were processed

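The authors' deposited lists hold regions and no reads, so depth is unknown. Per the labels they are on ce10 and ce11; per the deposited listings, candidates were the input of an irreproducible discovery rate analysis and were made with a control alignment. No source used here names an aligner, a peak caller or the threshold applied. The deposited signal (column 7) ranked the lines and the deposited −log10 q value described them. Replicate 1 had 26070 lines and replicate 2 had 21966; they share no identical line. The members are ranks 1687 to 3372 (1686 lines), the thresholded list ranks 1 to 1686 and the block that follows ranks 3373 to 5058. The 23 mitochondrial lines of the pooled list were left out after ranking. All ce11 ends lay within the WBcel235 chromosomes, and genes came from Ensembl release 115. Coordinates are 1-based. Printed sequences leave out chromosome I. Place classes were tested on simulated data. No test across lines was made: shares have Wilson intervals, differences Newcombe intervals, and each replicate's own list gives a second view (n = 2). Python 3.11.15 with pandas 2.3.3, numpy 2.4.6 and scipy 1.17.1 was used.

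Named genes were up to 4 of highest signal per list or class (up to 6 for lists with over 10), and named regions the 3 lines on each side of both limits, the 2 best replicated per place, the 3 that differ most each way and the 3 widest. Exceptions are stated. The members and lists were chosen with earlier results of these data known. Alternatives covered each replicate alone, distances, shared intervals, stronger neighbours, block size, matching and build.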

Additional observations from a re-analysis of the deposited data

How the results depend on the processing

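Of the 82 alternatives to 20 results, 57 stayed within the interval or 1.5 times the value reported, and 25 moved. A direction could reverse only for the differences in promoter, X and tRNA share, and none of these did. The difference in intron share, which had the opposite sign in both replicates' own lists, was not among the 20 results. With replicate 1 alone and then replicate 2 alone the promoter share was 32.7% and 33.3%, the coding exon share 12.3% and 12.1%, the difference in X share −3.69 and −1.38 points, the difference in tRNA share −9.20 and −5.01 points, collagen genes 18 and 23, and ribosomal protein genes 8 and 11. The promoter share was 23% within 250 bp and 49.2% within 1000 bp of the start. The tRNA share was 2.31% for summits inside the gene and 7.47% in the upper part of the block. The X difference was −1.65 points without lines at tRNA genes. The share matched in both replicates was 95% with an overlap of at least 50% of the shorter region and 94.6% with the summit inside. The share with both ranks within the members' last rank was 30.1% and 29.5% under those rules, 27.3% among lines that overlap no stronger line, and 24.6% with the nearest summit, a rule added once the data had been seen. With a 500 bp limit, added likewise, 14 collagen and 8 ribosomal protein genes were counted. The block that follows directly had 31.0% in promoters, 16% in coding exons, 21.7% in introns, 25.1% between genes and 2.49% at tRNA genes, closer to the members than the middle block. In each case the cause was not tested, beyond the narrower or wider window itself. No paired analysis was possible because there was 1 group. Lists without reads give no depth, and with 2 replicates a two-sided sign-flip test cannot go below p = 0.5, so an exact test could not pass a threshold.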
